A study of Homo sapiens with 6 samples.

Results

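Inflammasome genes, 10 in all, were followed in THP-1, a human line grown from a monocytic leukaemia. They were chosen by name: the sensors NLRP1, NLRP3, NLRC4, NAIP, AIM2 and IFI16, the adaptor PYCARD and the caspases CASP1, CASP4 and CASP5. Earlier results of these data were known when the choice was made. Each gene was read at the probe set that carries its symbol alone, or at the brightest of several such probe sets by mean signal, which left 9 of the 10 genes among 18417 genes in all. NLRP1 was covered by a probe set that also carries another symbol, so it is not reported. The study hybridised 6 single-colour Affymetrix arrays. Of these, 3 held cells differentiated with phorbol myristate acetate (PMA), a plant-derived activator of protein kinase C, given at 200 nM over 3 days and followed by 3 days of rest without it. The other 3 held THP-1 cells that received no PMA. The labels give no matched time in culture for them, so PMA and time in culture cannot be told apart. The labels name no genetic change, no lipopolysaccharide and no infection in either group, and both groups are the same tumour line. The labels do not say whether replicates were separate cultures. The p-values therefore reflect array-to-array spread alone, and that spread may be technical.

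An inflammasome is a protein complex that forms in the cytosol when a sensor meets a microbial product or a sign of cell damage. NLRP3 responds to many kinds of damage, the NAIP and NLRC4 pair to bacterial flagellin and secretion needle proteins, and AIM2 to double-stranded DNA. The adaptor PYCARD, also called ASC, links sensors to caspase-1, which cuts the precursors of the cytokines interleukin-1β and interleukin-18 and the pore protein gasdermin D. Caspase-4 and caspase-5 bind bacterial lipopolysaccharide directly and also cut gasdermin D, and the lytic death that follows is called pyroptosis. THP-1 cells treated with PMA are a common model in which this response is studied.

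Values are log2 signals of a probe set, so a difference of 1 is a 2-fold change, and levels of different genes are not compared because their probes differ. The lower quartile of the probe sets on each array lay between 4.46 and 4.57, and signal below it is treated as near background. The deposited values carry no detection call, so signal above it can be background too. Arrays of the same group correlated at 0.988 to 0.995 (Pearson's r over the whole table, across probe sets), and arrays of different groups at 0.958 to 0.968. The PMA replicate 3 array lay at least 2-fold from the mean of the other PMA arrays on 367 genes, against 41 and 181 for those arrays. The unstimulated replicate 1 array did so on 158 genes, 143 of them lower, against 16 and 25 for the other unstimulated arrays. Each of these 2 arrays is named below where a result rests on it. Of 10 monocyte and macrophage markers, 9 could be read alone, and each lay above the lower quartile on every array. Within that list CD14 was higher with PMA (log2 fold change 2.46) and LYZ lower (−2.76). The mean of 5 myeloblast granule markers, such as ELANE and CTSG, was 6.33 to 6.50 on PMA arrays and 10.64 to 11.01 on unstimulated arrays. Of 5 natural killer cell markers, KLRD1 and KLRF1 lay below the lower quartile on every array. GNLY read 10.56, 11.52 and 8.25 on the PMA arrays, against 5.95, 6.21 and 6.15 on the unstimulated arrays. NKG7 of the same list went the other way, at 6.89, 6.86 and 7.06 on the PMA arrays, against 7.97, 8.09 and 8.21 on the unstimulated arrays. The mean of those 5 markers was 5.37 to 6.05 on PMA arrays and 5.10 to 5.27 on unstimulated arrays. The part of either list in the results was not tested. Also above the lower quartile on every array lay 3 of 5 T cell, 3 of 4 B cell and 4 of 6 epithelial and fibroblast markers. Among the last, COL1A1 averaged 6.67 on PMA arrays and 6.68 on unstimulated arrays. A value above the quartile therefore does not show that a gene was expressed.

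Among the 9 genes, the DNA sensors AIM2 and IFI16 rose with PMA, and NAIP, PYCARD and CASP1 fell. Thus 5 of 9 passed an adjusted p of 0.05 in limma with Benjamini-Hochberg adjustment over all genes, 2 higher and 3 lower, where 26.4% of all genes passed, 13.2% in each direction. After median centring of the arrays, 61.8% of all genes that passed were higher, against 50.1% here, and 3 of the 9 genes were called higher and 2 lower. AIM2, IFI16 and NAIP changed by at least 2-fold, which 8.37% of all genes did while passing. The groups did not overlap for 7 of the 9, against 41.2% of all genes. As the genes were chosen with earlier results known, these shares are described and not tested. The median log2 fold change was 0.25 over the 9 genes and −0.03 over all genes, and the median size of change was 0.49 and 0.18. As these are bulk samples, fewer cells of a kind and less RNA per cell cannot be told apart. In what follows, a log2 fold change is PMA minus unstimulated and is followed by ± its limma standard error (3 arrays in each group).

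**Figure D1:**
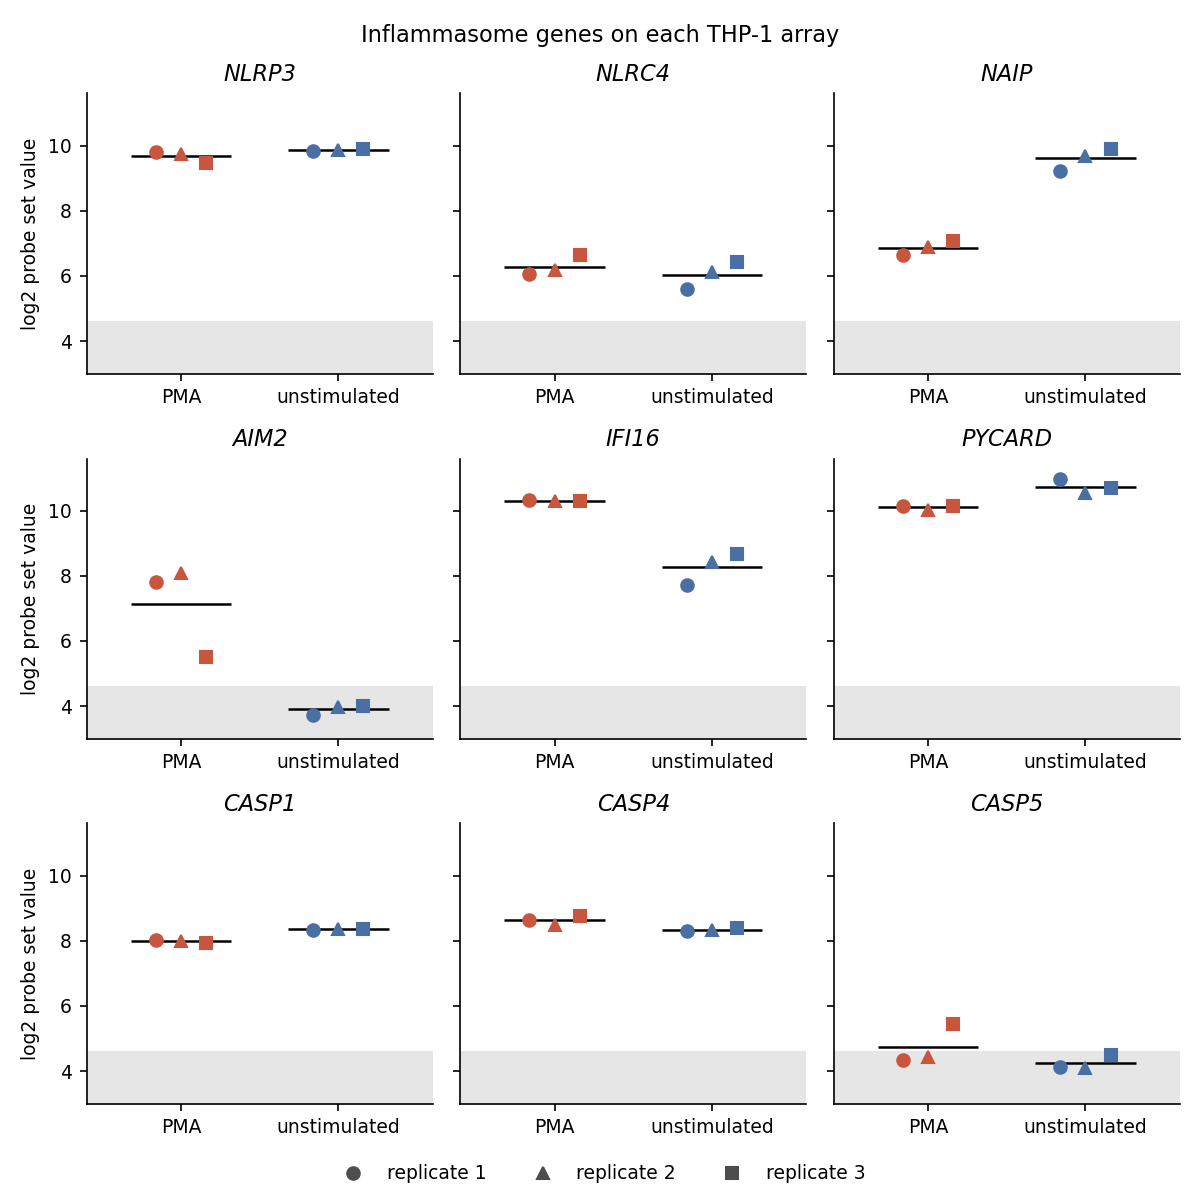
The log2 value of each gene on each array, with the 3 PMA arrays left and the 3 unstimulated arrays right in every panel. Lines are group means, symbols mark replicates, and the grey band ends at 4.57, the highest lower quartile of any array; AIM2 lies inside it on all unstimulated arrays.

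AIM2, a sensor of cytosolic double-stranded DNA, read 7.82, 8.07 and 5.51 on PMA replicates 1 to 3, against 3.73, 3.97 and 3.99 on the unstimulated arrays. Every PMA array lay above every unstimulated array, and PMA replicate 3 differed from the mean of the other PMA arrays by −2.44. The log2 fold change was 3.24 ± 0.60 (adjusted p = 0.00570 in limma), the 105th largest rise among all genes. Without PMA replicate 3 it was 4.05 ± 0.13 (adjusted p = 1.01e-06). By a gene-wise test without shared variance, AIM2 did not pass (adjusted p = 0.0794). All unstimulated values lay below their arrays' lower quartile, so the size of the rise is uncertain.

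IFI16, a DNA sensor of the same PYHIN family that is found in both nucleus and cytosol, read 10.33, 10.29 and 10.30 on the PMA arrays, against 7.72, 8.43 and 8.67 on the unstimulated arrays. The PMA arrays were nearly level (SD 0.02), and the unstimulated arrays were spread (SD 0.49), replicate 1 differing from the mean of the others by −0.83. The log2 fold change was 2.03 ± 0.22 (adjusted p = 0.000475 in limma), a 4.10-fold rise, and 1.76 without unstimulated replicate 1.

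AIM2 and IFI16 stand side by side on chromosome 1 in the RefSeq gene order, together with MNDA and PYHIN1, which encode 2 more PYHIN proteins. MNDA, a myeloid nuclear antigen, read 5.80, 5.80 and 5.16 on the PMA arrays, against 9.47, 8.80 and 8.93 on the unstimulated arrays, and fell by 3.48 ± 0.23 on the log2 scale (adjusted p = 4.07e-05 in limma). PYHIN1 did not pass (−0.53 ± 0.20, adjusted p = 0.0906), but it did without PMA replicate 2 (−0.73, adjusted p = 0.0185) and with the replicate number as a block (adjusted p = 0.0482). Of these 4 related genes, 2 therefore rose and 1 fell.

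The 300 bases around the start of each of the risen neighbours are shown because the genes lie side by side and rose together. RefSeq (GRCh38.p14) gives 1 start for AIM2, with a window at chr1:159076717-159077016 on the minus strand, and 2 for IFI16, with windows at chr1:159008741-159009040 and chr1:159009657-159009956 on the plus strand. Each runs from 250 bases before the start to 50 bases after it, in the direction of the gene, and capitals mark matches to 5 searched motifs.
AIM2: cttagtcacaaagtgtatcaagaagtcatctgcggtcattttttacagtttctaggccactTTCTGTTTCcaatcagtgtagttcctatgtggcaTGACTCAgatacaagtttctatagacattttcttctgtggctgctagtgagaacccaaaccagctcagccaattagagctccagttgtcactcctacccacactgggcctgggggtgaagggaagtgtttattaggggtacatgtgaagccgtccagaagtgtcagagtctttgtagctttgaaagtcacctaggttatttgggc
IFI16 start 1: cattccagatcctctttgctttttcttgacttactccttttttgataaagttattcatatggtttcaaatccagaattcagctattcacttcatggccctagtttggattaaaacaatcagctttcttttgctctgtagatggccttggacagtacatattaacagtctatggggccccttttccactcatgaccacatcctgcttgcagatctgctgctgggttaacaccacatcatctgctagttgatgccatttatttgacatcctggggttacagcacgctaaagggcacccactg
IFI16 start 2: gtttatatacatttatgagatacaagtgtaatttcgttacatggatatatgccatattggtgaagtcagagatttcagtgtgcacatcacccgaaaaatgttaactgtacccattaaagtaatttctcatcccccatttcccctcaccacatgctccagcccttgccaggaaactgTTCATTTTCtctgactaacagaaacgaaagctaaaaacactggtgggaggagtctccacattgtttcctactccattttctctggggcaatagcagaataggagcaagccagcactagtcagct
The motifs were searched on both strands as plain letters: TGAGTCA, the phorbol ester response element bound by AP-1; GGANTTTCC for NF-kappaB; GAAANNGAA for the interferon-stimulated response element; AGGAAGT for ETS factors; and TTCNNNGAA for STAT factors. The AIM2 window held 1 TGAGTCA match, read as TGACTCA and beginning at position −155 from the start, where 4.96% of 34796 RefSeq windows of the same length held one. It also held 1 GAAANNGAA match, on the other strand and beginning at position −189, against 8.11% of windows. The second IFI16 window held 1 GAAANNGAA match, beginning at position −74, and the first held none of the 5. GAAANNGAA was not confined to the risen genes. NLRC4 held 1 match, beginning at position −87, and CASP5 held the motif too, and neither gene passed. The matches in the AIM2 window do not overlap each other, and a match is a run of letters, not a measured site.

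NAIP encodes the human receptor for flagellin and needle proteins, which recruits NLRC4. It read 6.63, 6.88 and 7.07 on the PMA arrays, against 9.22, 9.69 and 9.90 on the unstimulated arrays, with a gap of over 2 between the groups. The log2 fold change was −2.74 ± 0.19 (adjusted p = 5.37e-05 in limma), a 6.70-fold fall and the 69th largest among all genes. The other 2 probe sets of NAIP held identical values to each other, 6.52, 6.75 and 6.93 on the PMA arrays, against 9.14, 9.58 and 9.77 on the unstimulated arrays, and gave −2.76 ± 0.18. NAIP lies in a duplicated part of chromosome 5 with near-identical partial copies, so its probe sets can share signal with them, and the 3 readings are not separate evidence.

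NLRC4, the partner that NAIP recruits and that activates caspase-1, read 6.05, 6.17 and 6.65 on the PMA arrays, against 5.60, 6.11 and 6.42 on the unstimulated arrays. The groups overlapped, and the change did not pass (0.25 ± 0.23, adjusted p = 0.512 in limma, 95% interval −0.29 to 0.78). Its sign rested on the arrays that stood apart: without both PMA replicate 3 and unstimulated replicate 1 it was −0.15. Whether NAIP and NLRC4 changed by different amounts was not tested.

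NLRP3 read 9.80, 9.74 and 9.48 on the PMA arrays, against 9.84, 9.87 and 9.90 on the unstimulated arrays. The groups did not overlap, but they lay close together, and PMA replicate 3 was the lowest of all 6. The difference did not pass (−0.20 ± 0.11, adjusted p = 0.235 in limma), and its 95% interval, −0.45 to 0.05, does not reach a 2-fold change in either direction. All 6 values lay well above the lower quartile.

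PYCARD, the adaptor that gathers into specks and brings caspase-1 to most of these sensors, read 10.15, 10.02 and 10.14 on the PMA arrays, against 10.97, 10.55 and 10.69 on the unstimulated arrays. All PMA arrays lay below all unstimulated arrays. The log2 fold change was −0.63 ± 0.12 (adjusted p = 0.00747 in limma), a 1.55-fold fall. By the gene-wise test it missed the threshold (adjusted p = 0.0524).

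CASP1, the protease of the complex, read 8.02, 7.99 and 7.93 on the PMA arrays, against 8.32, 8.35 and 8.37 on the unstimulated arrays. The replicates of each group were close (SD 0.05 and 0.02), and the fall was small, −0.37 ± 0.08 (adjusted p = 0.0137 in limma), or 1.29-fold. With each array centred on its median it no longer passed (−0.28, adjusted p = 0.0527), and neither did it without unstimulated replicate 3 (−0.36, adjusted p = 0.0518).

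The lipopolysaccharide-binding caspases did not pass. CASP4 read 8.64, 8.50 and 8.76 on the PMA arrays, against 8.30, 8.33 and 8.39 on the unstimulated arrays, without overlap (0.29 ± 0.10, adjusted p = 0.0655 in limma). It passed with each array centred on its median (0.38, adjusted p = 0.0263) and after cyclic loess (0.35, adjusted p = 0.0369). CASP5 read 4.34, 4.42 and 5.45 on the PMA arrays, against 4.13, 4.09 and 4.51 on the unstimulated arrays (0.49 ± 0.29, adjusted p = 0.266). Of its 6 values, 5 lay below the lower quartile of their array, and the exception was PMA replicate 3, without which the log2 fold change was 0.14.

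**Figure D2:**
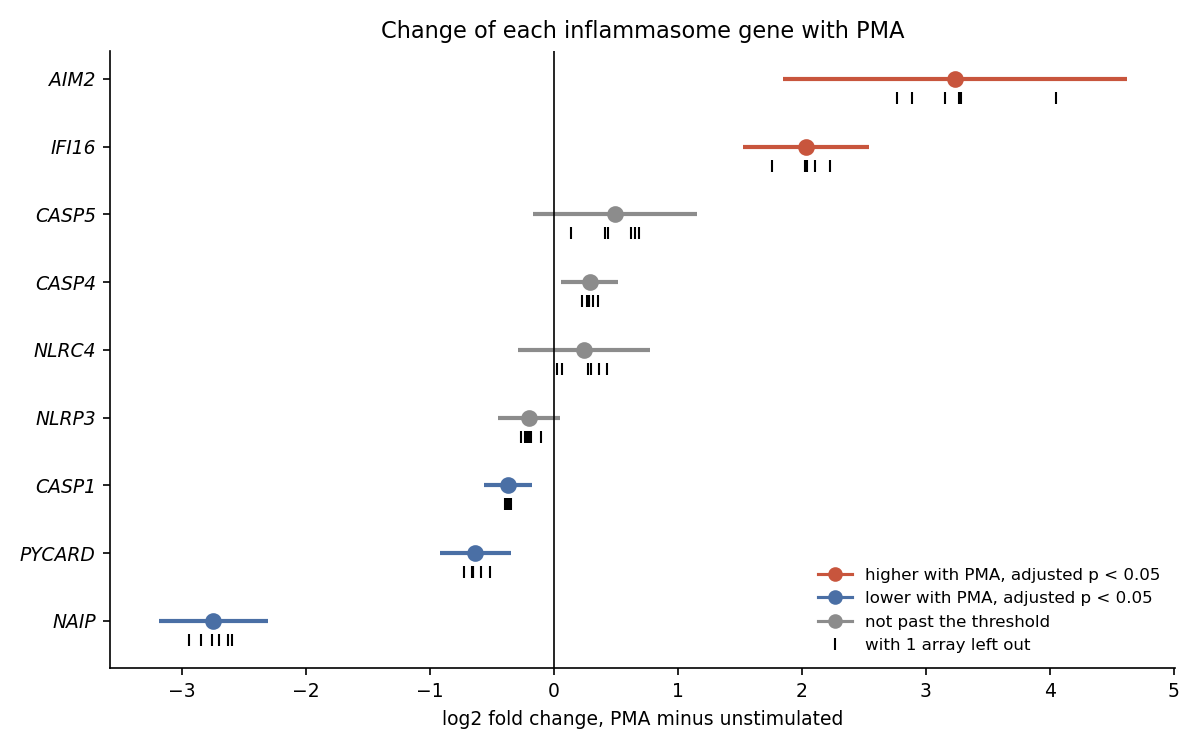
Log2 fold change of each gene, PMA minus unstimulated, with its 95% limma interval (3 arrays in each group) and black ticks for the fits that leave out 1 array each. AIM2, IFI16 and NAIP lie beyond 1 in size under every such fit, and the AIM2 tick at 4.05 is the fit without PMA replicate 3.

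CASP4, CASP5 and CASP1 are neighbours on chromosome 11, followed by CARD16 and CARD18, which encode short proteins made of a caspase recruitment domain that resemble the front part of caspase-1. CARD16 did not pass (0.41 ± 0.15, adjusted p = 0.0799 in limma), though it did without PMA replicate 2 (0.53, adjusted p = 0.0364), without unstimulated replicate 1 (0.50, adjusted p = 0.0495) and without both arrays that stood apart (0.44, adjusted p = 0.0394). CARD18 lay below the lower quartile on all 6 arrays. These genes are close relatives, and probe sets of one can take up signal of another.

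The start windows of CASP4 and CASP5 are shown because these neighbours encode both lipopolysaccharide-binding caspases and their windows align closely. They lie at chr11:104968525-104968824 and chr11:105023119-105023418 on the minus strand of GRCh38.p14 (RefSeq), with capitals as above.
CASP4: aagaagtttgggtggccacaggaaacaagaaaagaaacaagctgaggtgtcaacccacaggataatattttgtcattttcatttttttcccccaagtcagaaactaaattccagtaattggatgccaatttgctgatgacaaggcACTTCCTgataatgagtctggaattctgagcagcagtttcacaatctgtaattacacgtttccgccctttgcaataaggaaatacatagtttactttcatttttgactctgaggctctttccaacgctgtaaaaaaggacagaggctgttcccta
CASP5: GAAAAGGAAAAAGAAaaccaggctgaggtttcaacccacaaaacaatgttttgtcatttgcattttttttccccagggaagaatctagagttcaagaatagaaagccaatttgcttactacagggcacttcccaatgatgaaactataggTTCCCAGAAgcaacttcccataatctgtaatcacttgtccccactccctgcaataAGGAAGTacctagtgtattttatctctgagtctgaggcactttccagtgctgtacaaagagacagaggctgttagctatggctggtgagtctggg
In a global alignment 215 of 280 aligned base pairs were identical (76.8%), the highest of 21 pairs of member windows compared, the others lying between 51.7% and 65.6%. Both windows held 1 AGGAAGT match, which 8.25% of RefSeq windows hold, at different places. The PYCARD window held 1 as well, beginning at position 7. The CASP5 window also held 1 TTCNNNGAA match (7.67% of windows) and 2 overlapping GAAANNGAA matches at its far end. Among the 10 windows of the 7 members in the RefSeq table, only that of NLRP3 held a match to GGANTTTCC. It began at position −127, and 1.65% of RefSeq windows hold such a match.

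**Figure D3:**
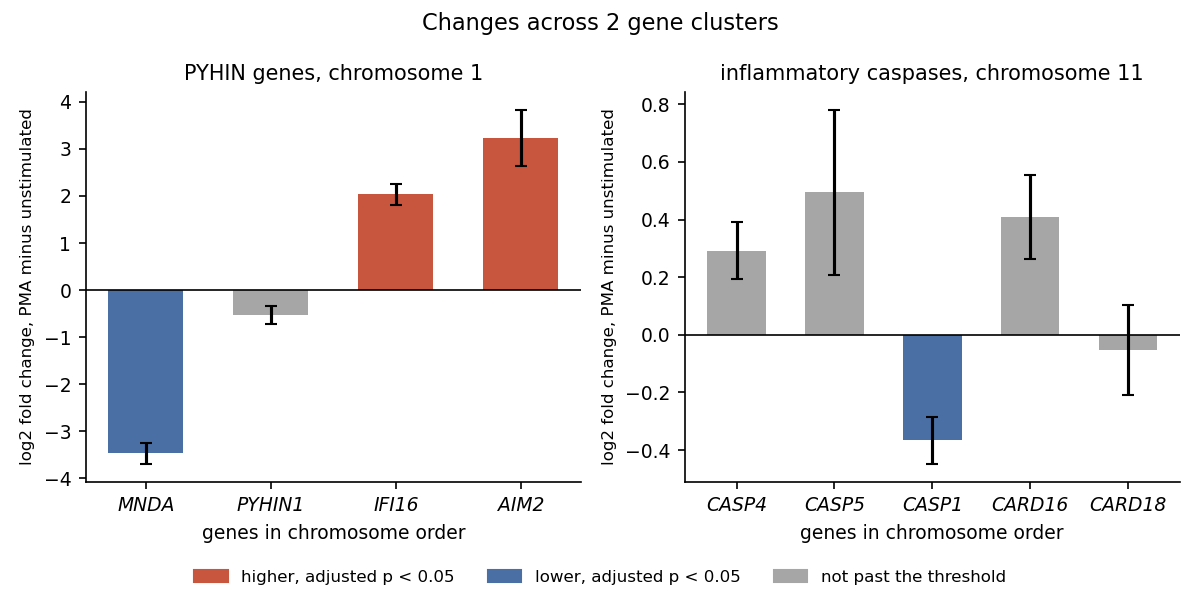
Log2 fold change, PMA minus unstimulated, ± standard error (3 arrays in each group) for neighbouring genes in chromosome order, on chromosome 1 (left) and chromosome 11 (right). The 2 vertical axes differ in scale: MNDA, at −3.48, and AIM2, at 3.24, moved in opposite directions, while all 5 genes on the right lie between −0.37 and 0.49.

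The remaining genes of the pathway came from lists grouped by role, also chosen with earlier results of these data known. Their shares are described and not tested. Of 12 other sensors and related receptors, none rose and 6 fell (50% against 26.4% of all genes), with a median log2 fold change of −0.52 against −0.03 over all genes. That none rose rests on PMA replicate 3: without it 2 rose and 6 fell, and the 2, chosen after their values were seen, were NLRC5 (0.78, against 0.53 with all 6 arrays) and the peptidoglycan receptor NOD2 (0.56, against 0.24). Over all genes, 5042 passed without PMA replicate 3, against 4854 with every array. MNDA fell most, followed by MEFV (−1.72 ± 0.16, adjusted p = 0.000227), which encodes pyrin, the sensor of inactivated RhoA. MEFV read 6.25, 6.66 and 6.80 on the PMA arrays, against 8.10, 8.41 and 8.37 on the unstimulated arrays, with no overlap. The peptidoglycan receptor NOD1 (−1.04 ± 0.11) and NLRP12 (−0.78 ± 0.14) also fell, NLRP12 lying below the median of its array throughout. CARD8, a sensor that shares its autoprocessing domain with NLRP1, did not pass (0.23 ± 0.12, adjusted p = 0.222 in limma), and the mean of its probe sets gave −0.11.

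Of 16 genes of priming and activation, 4 rose and 1 fell (31.2%, near the 26.4% of all genes), with a median log2 fold change of 0.29. LY96, the lipopolysaccharide-binding partner of TLR4 that sits upstream of priming, read 8.97, 8.76 and 9.55 on the PMA arrays, against 4.67, 6.21 and 6.30 on the unstimulated arrays. Its log2 fold change was 3.37 ± 0.42 (adjusted p = 0.000992 in limma), and 2.61 without both arrays that stood apart. NFKB1, the p50 subunit of the factor that induces NLRP3 and IL1B, rose by 0.83 ± 0.11. NEK7, the kinase that binds NLRP3, rose by 0.54 ± 0.16 (adjusted p = 0.0384), but lost its call without any 1 of the PMA arrays or without unstimulated replicate 2 (adjusted p 0.0504 to 0.113). TICAM1, the TRIF adaptor, rose by 0.44 ± 0.11 and lost its call without PMA replicate 1 or 2 or unstimulated replicate 2 or 3 (adjusted p 0.0560 to 0.0734).

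IRF8, a transcription factor known in mouse macrophages to drive Naip genes, read 8.21, 8.60 and 8.08 on the PMA arrays, against 11.90, 11.61 and 11.68 on the unstimulated arrays. It fell by 3.43 ± 0.15 on the log2 scale (adjusted p = 7.73e-06 in limma). P2RX7, the ATP-gated channel whose opening triggers NLRP3, read 7.21, 7.24 and 6.86 on the PMA arrays, against 7.15, 8.24 and 8.48 on the unstimulated arrays, and did not pass (−0.85 ± 0.32, adjusted p = 0.0915). Only unstimulated replicate 1 overlapped the PMA arrays, and without it P2RX7 fell by 1.26 on the log2 scale (adjusted p = 0.00140). TXNIP, a thioredoxin inhibitor that binds NLRP3, did not pass (−0.46 ± 0.15, adjusted p = 0.0625), but did without PMA replicate 3 (−0.62, adjusted p = 0.00705) or without unstimulated replicate 1 (−0.55, adjusted p = 0.0476). The count for these 16 genes was 9 without unstimulated replicate 1 and 10 without both arrays that stood apart. It was 3 without PMA replicate 1 or unstimulated replicate 2. The count over all 18417 genes moved too, from 4854 with every array to 4764 and 6310 in the first pair of fits. In the second pair it was 3323 and 3607.

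Of 11 decoys and inhibitors, 2 rose and 2 fell (36.4%, against 26.4% of all genes), with a median of 0.08 on the log2 scale. Without both arrays that stood apart 4 rose and 2 fell, where 6310 of all genes passed, against 4854 with every array. BCL2 and BCL2L1, which bind and restrain NLRP1, went opposite ways. BCL2 read 7.47, 7.05 and 8.34 on the PMA arrays, against 9.43, 9.48 and 9.50 on the unstimulated arrays (−1.85 ± 0.29, adjusted p = 0.00252). BCL2L1 read 9.37, 8.91 and 8.92 on the PMA arrays, against 7.79, 7.51 and 7.61 on the unstimulated arrays (1.43 ± 0.15, adjusted p = 0.000388). SERPINB1, an inhibitor of neutrophil proteases that also restrains inflammatory caspases, fell (−1.06 ± 0.16), and DPP9, the peptidase that holds NLRP1 and CARD8 inactive, rose (0.48 ± 0.13). The DPP9 call was lost on leaving out any single array but unstimulated replicate 1 (adjusted p 0.0515 to 0.0932).

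Of 8 genes of pyroptosis execution, 4 rose and 1 fell (62.5%, against 26.4% of all genes), and the median log2 fold change was 0.23. GSDMD, the gasdermin that caspases 1, 4 and 5 cut, read 6.91, 6.87 and 7.08 on the PMA arrays, against 7.30, 7.24 and 6.97 on the unstimulated arrays, with overlap (−0.22 ± 0.12, adjusted p = 0.230 in limma). GSDME, a gasdermin cut by caspase-3, read 8.20, 8.20 and 8.08 on the PMA arrays, against 6.17, 5.69 and 6.17 on the unstimulated arrays, and rose by 2.15 ± 0.14 (adjusted p = 4.50e-05). NINJ1, which ruptures the membrane of dying cells, rose by 0.96 ± 0.10 (adjusted p = 0.000380). GSDMB fell (−0.77 ± 0.20), and lost its call, at −0.76 to −0.61, without PMA replicate 1 or 2 or unstimulated replicate 2 or 3 (adjusted p 0.0642 to 0.0865). CASP8 (0.35 ± 0.09) and the membrane repair subunit CHMP4B (0.42 ± 0.13) rose in the fit of all 6 arrays, and lost their calls without any single array but PMA replicate 2 (CASP8 0.0545 to 0.0978, CHMP4B 0.0841 to 0.154). The count of 5 was accordingly 2 without PMA replicate 1 or unstimulated replicate 2 or 3. It was 3 without PMA replicate 3, unstimulated replicate 1 or both. The count over all genes, 4854 with every array, was 3323, 3607 and 3607 in the former fits. It was 5042, 4764 and 6310 in the latter.

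IL1B and IL18, 2 genes of cytokines that caspase-1 matures, moved in opposite directions. IL1B read 12.99, 13.12 and 12.05 on the PMA arrays, against 5.66, 6.40 and 6.37 on the unstimulated arrays, and rose by 6.58 ± 0.31 (adjusted p = 9.35e-06 in limma). IL18 read 6.68, 6.37 and 6.12 on the PMA arrays, against 7.15, 7.19 and 7.53 on the unstimulated arrays, and fell by 0.90 ± 0.16 on the log2 scale (adjusted p = 0.00557). Of the 8 genes in this list, 3 rose and 1 fell (50%, against 26.4% of all genes), with a median log2 fold change of 0.97. Without PMA replicate 3, and without both arrays that stood apart, 5 rose and 1 fell. So they did with the replicate number as a block or each array centred. The count over all genes was 5042, 6310, 4726 and 4713 in these fits in turn, against 4854 in the main fit. The further calls, chosen after their values were seen, were IL1R2, a decoy receptor for interleukin-1 (2.19 without PMA replicate 3, against 1.63 ± 0.52 with all 6 arrays), and the cytokine gene IL33 (0.50, against 0.38 ± 0.12), which lay below the lower quartile on all 6 arrays. The receptor antagonist IL1RN rose by 2.38 ± 0.31, reading 9.71 on PMA replicate 3 and 10.99 and 10.92 on the other PMA arrays. IL1A rose by 1.56 ± 0.46 (adjusted p = 0.0414), but its PMA arrays read 5.54, 6.53 and 4.35, its unstimulated arrays 3.84 to 3.98, and its call was lost without any single array but PMA replicate 3 (adjusted p 0.0608 to 0.120). AIM2, IL1B, IL1A and IL1RN thus all had their lowest PMA value on replicate 3, and were picked after their values were seen. So did IL18 and MNDA, which fell, and NLRP3, which did not pass.

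Apoptotic caspases and their partners were set beside these genes. Of 9 measured, 1 rose and 2 fell (33.3%, against 26.4% of all genes), with a median log2 fold change of −0.26, and none changed 2-fold. APAF1, the scaffold that activates caspase-9, fell (−0.94 ± 0.14), as did the survivin gene BIRC5 (−0.52 ± 0.10), while the caspase inhibitor XIAP rose (0.78 ± 0.16). The count was 5 without unstimulated replicate 1 and without both arrays that stood apart. Over all genes it was 4764 and 6310 in these fits, against 4854 with every array.

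**Figure D4:**
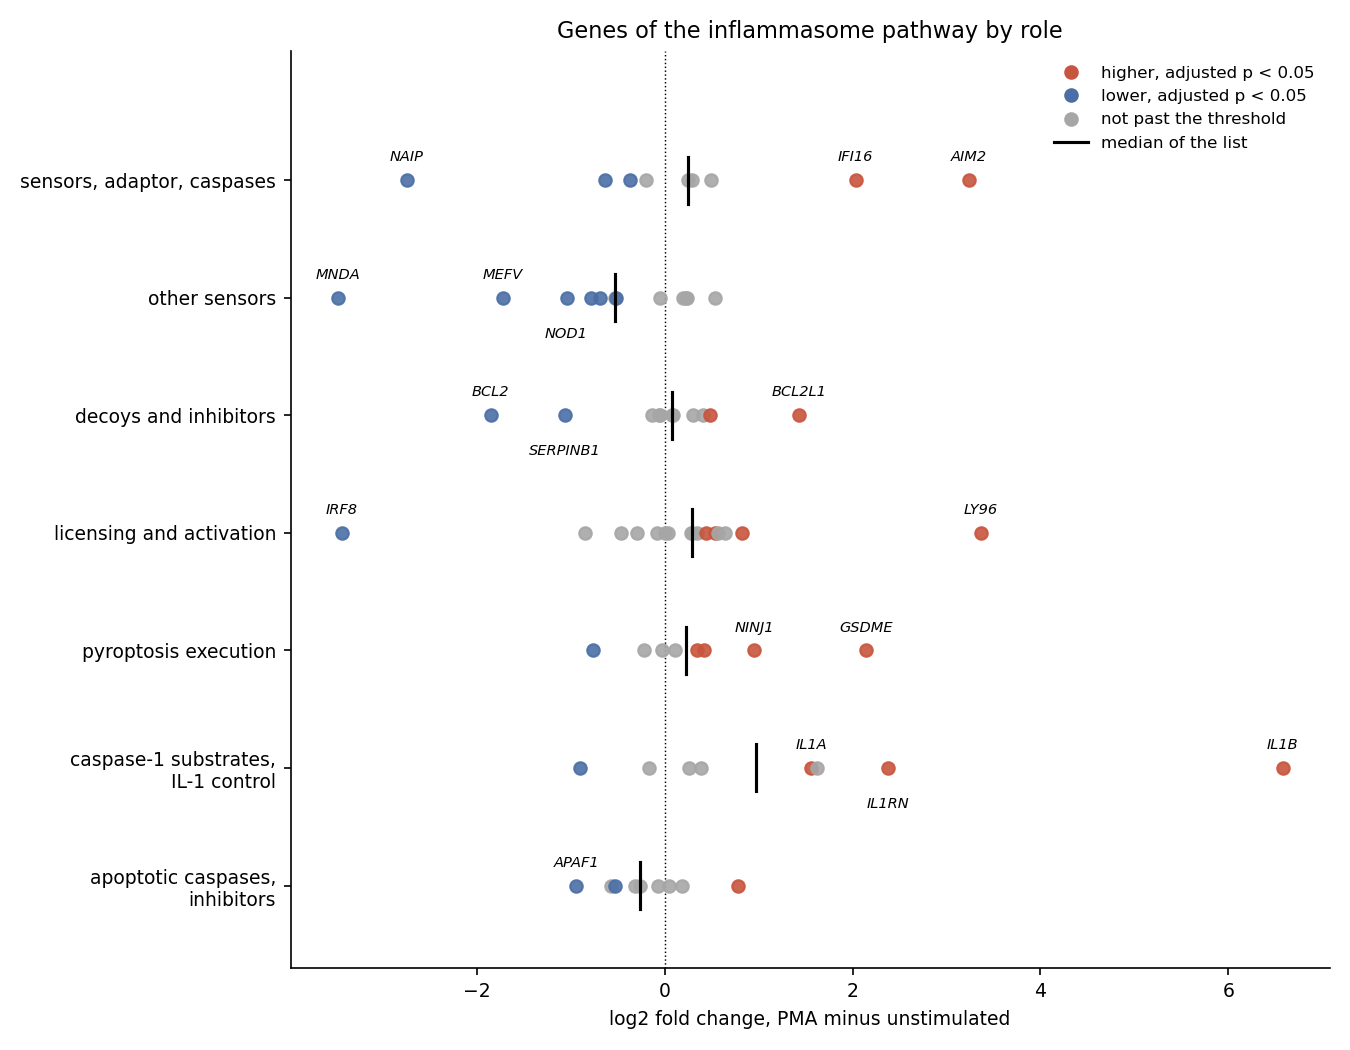
Log2 fold change, PMA minus unstimulated, of each gene read alone, 1 row per role, with a bar at the median of each row. Colours mark genes past an adjusted p of 0.05 in limma, and genes past it that changed by at least 0.9 are named; IL1B, at 6.58, lies farthest right, and MNDA, at −3.48, farthest left.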

How the data were processed

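The authors' deposited table holds 1 log2 value per probe set and array. RMA and Partek are named, without versions, per the submitters' processing notes. RMA quantile-normalizes arrays, which pulls their distributions together, and its values shrink differences between dim signals. Total RNA was labelled with biotin, per the labels' protocols. Of 33297 probe sets, 19460 carried 1 symbol in the platform annotation (19429 matched to the current gene table), 1754 carried several and 12083 were not named there. The brightest stood for a gene, and 18417 genes were tested in R 4.3.3 by limma 3.58.1 (eBayes after lmFit, group as the only term, 7.71 degrees of freedom), two-sided. No dim probe set was left out. The members and lists were chosen with earlier results of these data known. Genes were named by a rule: every member, up to 4 rises and 4 falls per list among those past the threshold without overlap, and 12 genes whatever their values, 6 of which the lists also gave. The markers, CARD18 and genes said to be chosen after their values were seen stand outside it. The fit was also run on simulated data with independent values, which cannot show how it behaves where 2 arrays stand apart. Having few arrays limits the precision. Start windows came from RefSeq and were aligned with Biopython 1.88.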

Additional observations from a re-analysis of the deposited data

How the results depend on the processing

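There were 22 alternatives for NAIP, which has 3 probe sets, 20 for 5 of the other genes, 19 for AIM2 and NLRC4 and 18 for CASP5, which the filters on dim genes removed. NAIP (−3.04 to −2.59) and IFI16 (1.76 to 2.23) kept their direction and call under all of theirs, and NLRP3 did not pass under any. The number of members past the threshold was 5 in the main fit. It was 6 after cyclic loess, 4 at an adjusted p of 0.01 and 4 without unstimulated replicate 3. With genes below the median left out it was 4 of 6 members kept. It was 3 by the gene-wise test and by treat against a 1.5-fold change. The number of all genes was 4854, and 2843 by the gene-wise test, 2824 at an adjusted p of 0.01 and 1125 by treat. With arrays left out it ranged from 3323 (without PMA replicate 1) to 6310 (without both arrays that stood apart). By the gene-wise test AIM2 (3.24, adjusted p = 0.0794) and PYCARD (−0.63, 0.0524) lost their calls, as PYCARD (−0.63) and CASP1 (−0.37) did by treat and CASP1 (−0.37) at an adjusted p of 0.01. With each array centred on its median CASP1 lost its call (−0.28) and CASP4 gained one (0.38), as it did after cyclic loess (0.35). Leaving out arrays gave −0.39 to −0.34 for CASP1 and −0.15 to 0.43 for NLRC4. NLRC4 was reversed with array quality weights (−0.019) and without both arrays that stood apart (−0.15), and CARD8 with the mean of its probe sets (−0.11). The cause was not tested. Centring moved the median of all genes by 0.09 and the share of calls that were higher to 61.8%, against 50.1% here (54.3% with quantile normalization repeated, 59.8% after cyclic loess). Whether arrays of equal replicate number were paired is not given by the labels. Their deviations from the group means correlated at 0.18, −0.02 and 0.05, and those of unequal number at −0.15 to 0.11. These values cannot settle whether the arrays were paired. With the replicate block, 4726 genes and 5 members passed, and 4 of 40 named genes changed their call (CHMP4B lost, TXNIP, CARD16 and PYHIN1 gained). Signal near background limits the size given for AIM2, CASP5 and IL1A. Other genes with low values above the lower quartile may be limited in the same way.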
